A study of Mus musculus with 8 samples.

Results

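The nuclear genes of the mitochondrial respiratory chain were examined as a group in 8 ChIP-seq peak lists from mouse embryonic stem cells (ESCs) and neuronal cells (NCs). The group was chosen by name and annotation only. It holds the protein-coding nuclear genes of GENCODE M21 whose names begin with Nduf, Sdh (Sdha to Sdhd and the Sdhaf genes), Uqcr, Atp5, or Cox followed by a number. The rule gave 106 of 21911 nuclear protein-coding genes. A gene was counted as bound in a list when a peak lay within 1000 bp of any of its transcript starts, with an overlap of at least 20 bp. No measured value entered the rule, but the group was picked with earlier results of these libraries known. The strength of a peak is given as its −log10 p, the peak caller's Poisson value at the summit, and only values of 1 list can be ranked against each other, since depth differed between lists.

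All libraries came from the mouse ESC line E14Tg2a at passages 37 to 40. ESCs were grown with leukemia inhibitory factor (LIF), and NCs were obtained by giving LIF-free monolayers 1 µM retinoic acid (RA) for 48 h. Antibodies to FGFR1 (a receptor tyrosine kinase with a nuclear form), to the nuclear receptors RXR (RXRα in the sample labels) and Nur77 and to the histone variant H3.3 were used. The 3 factors were profiled in both states, H3.3 after RA alone. A single library stood for each of the 7 combinations apart from FGFR1 with RA, for which replicates 1 and 2 exist. The title of replicate 2 marks it as a second experiment, which no LIF library carries. Chromatin was pooled from several plates of this 1 line, so the libraries do not sample other lines or animals. The lists hold no expression values, and no marker of ESCs or neurons could be read from them.

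The respiratory chain moves electrons from NADH (complex I) and succinate (complex II) through ubiquinol and cytochrome c (complexes III and IV) to oxygen, and ATP synthase uses the proton gradient that this builds up. A few core subunits are encoded in mitochondrial DNA, while the rest, and the factors that assemble the complexes, come from nuclear genes. Textbook regulators of the nuclear genes include NRF1, the ETS factor GABP, YY1, Sp1, CREB and the orphan receptors of the ERR family. RXR and Nur77 read relatives of the same nuclear receptor half-site as the ERRs. The differentiation of ESCs is known to be accompanied by a change from glycolysis towards oxidative phosphorylation.

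The exon-free DNA just upstream of the first annotated start is shown for 7 members, chosen because they span the range of binding described next. Ndufaf4, Uqcrfs1 and Cox5a had a peak in all 8 lists, Cox6a1 and Sdhb in some, and Cox4i2 and Cox7b in none. Each run is written 5′ to 3′ along the gene in mm10 (GRCm38) and ends 1 base before the start. Capitals mark any of the words GGGCGG (GC box, read by Sp1), CGCATGCG (NRF1), AGGTCA (nuclear receptor half-site), CACGTG (E-box), CCGGAAG (ETS), AAGATGGCG (YY1) and TGACGTCA (cAMP response element, read by CREB), on either strand.

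Ndufaf4, chr4:24897933-24898082, plus strand: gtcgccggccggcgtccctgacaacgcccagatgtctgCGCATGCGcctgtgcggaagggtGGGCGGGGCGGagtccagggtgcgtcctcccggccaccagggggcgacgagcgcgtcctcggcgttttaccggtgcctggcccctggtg
Uqcrfs1, chr13:30545363-30545512, minus strand: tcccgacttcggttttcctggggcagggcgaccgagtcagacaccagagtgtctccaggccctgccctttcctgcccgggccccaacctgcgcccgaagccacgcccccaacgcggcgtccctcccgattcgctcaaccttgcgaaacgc
Cox5a, chr9:57521124-57521273, plus strand: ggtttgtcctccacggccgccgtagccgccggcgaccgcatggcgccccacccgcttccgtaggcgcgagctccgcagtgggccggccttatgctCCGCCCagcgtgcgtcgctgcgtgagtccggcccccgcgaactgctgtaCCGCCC
Cox6a1, chr5:115348982-115349129, minus strand: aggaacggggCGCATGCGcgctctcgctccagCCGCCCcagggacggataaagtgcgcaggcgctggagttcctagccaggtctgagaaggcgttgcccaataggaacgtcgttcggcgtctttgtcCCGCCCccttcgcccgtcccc
Sdhb, chr4:140961053-140961202, plus strand: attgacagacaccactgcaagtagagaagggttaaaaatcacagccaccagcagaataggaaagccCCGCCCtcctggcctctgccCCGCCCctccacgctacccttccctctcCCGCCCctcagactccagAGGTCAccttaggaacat
Cox4i2, chr2:152754023-152754172, plus strand: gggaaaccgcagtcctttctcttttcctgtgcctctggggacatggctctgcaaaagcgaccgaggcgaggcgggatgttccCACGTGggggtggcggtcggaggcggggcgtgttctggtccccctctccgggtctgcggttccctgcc
Cox7b, chrX:106015550-106015699, plus strand: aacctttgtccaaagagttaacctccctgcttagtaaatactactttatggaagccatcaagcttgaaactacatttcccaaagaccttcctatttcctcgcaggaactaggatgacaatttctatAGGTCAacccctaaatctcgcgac

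A word match describes the letters and says nothing of a factor's presence. The Ndufaf4 run holds an NRF1 word from 112 to 105 bases before the start and 2 GC boxes that share 1 base, and the Cox6a1 run also holds an NRF1 word and 2 GC boxes, although Cox6a1 was bound in 4 of the 8 lists. The Uqcrfs1 run, from a gene bound in every list, holds none of the words. Cox4i2 has an E-box and Cox7b a half-site, and neither gene was bound in any list.

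In LIF, 34 of the 106 members (32.1%) had an FGFR1 peak, against 17.0% of all protein-coding genes. RXR was found at 68 members (64.2%), against 42.5% of all genes. Nur77 was found at 39 members (36.8%), against 25.5%. The RA lists gave FGFR1 peaks at 81 members (76.4%) in replicate 1, against 50.8% of all genes, and at 98 members (92.5%) in replicate 2, against 49.6%. RXR peaks were found at 29 members (27.4%) in RA, against 23.3%. Nur77 peaks lay at 36 members (34.0%), against 25.8%, and H3.3 peaks at 30 members (28.3%), against 15.5%. The share of members was thus above that of all genes in each of the 8 lists as deposited. The margin was widest in FGFR1 replicate 2 and narrowest in RXR from RA.

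**Figure D1:**
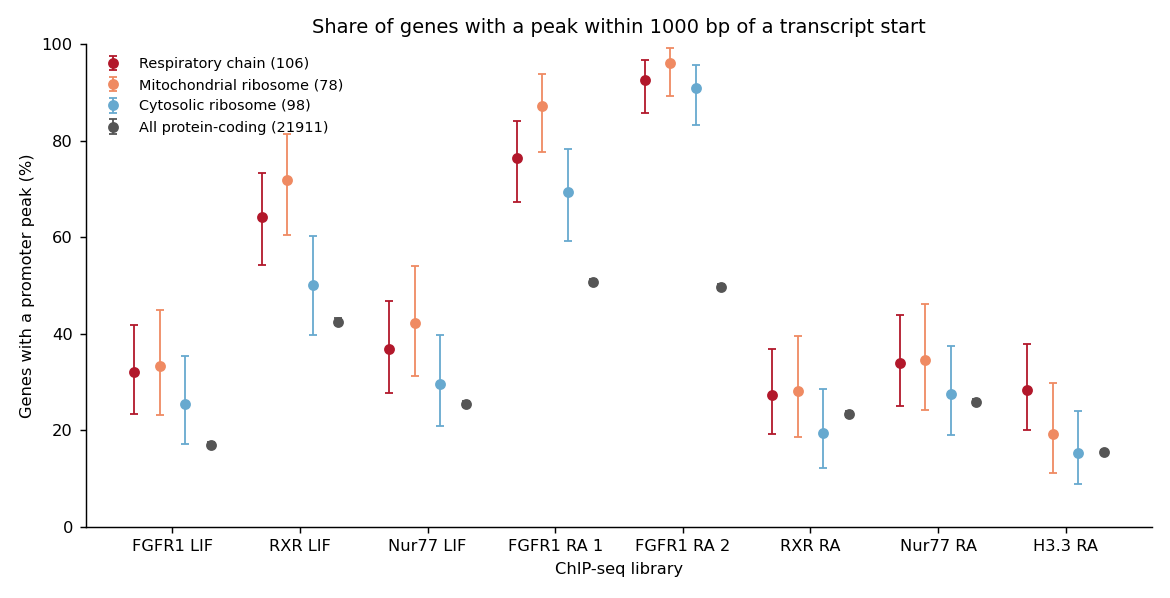
The share of genes with a promoter peak (%, y axis) is plotted for each library (x axis) for the respiratory chain, the genes of the mitochondrial and cytosolic ribosomes, and all protein-coding genes. Points are single libraries and bars are exact 95% intervals for counting error; respiratory chain shares lie above those of all genes in every library and peak at 92.5% in FGFR1 replicate 2.

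Exact 95% binomial intervals for these shares cover counting error only, since genes are not replicates of a condition. They ran from 23.3 to 41.8% for FGFR1 in LIF, from 67.2 to 84.1% for replicate 1 and from 85.7 to 96.7% for replicate 2. For RXR in RA the interval was 19.1 to 36.9%, which includes the share of all genes. The same holds for Nur77 in RA, at 25.0 to 43.8%. Genes of other housekeeping machines gave similar shares. The 78 genes of the mitochondrial ribosome (Mrpl and Mrps) were bound at 33.3% by FGFR1 in LIF and at 87.2 and 96.2% in the RA replicates. The 98 genes of the cytosolic ribosome (Rpl and Rps) were bound at 25.5, 69.4 and 90.8%. The intervals of both lists overlap those of the respiratory chain in each library. The respiratory chain promoters held more CpG than those of all genes, with a median ratio of observed to expected CpG of 0.780 against 0.524 over all genes, at a median GC content of 56.2 against 55.0%. What part CpG content plays in the shares was not tested.

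The libraries differed in depth, which was inferred from the deposited values. Background density was 1.27 to 7.09 fragments per kb. The typical summit held 9 to 12 fragments, or 27 in FGFR1 replicate 2. Replicate 2 also stood apart in width, with a median of 374 bp at member promoters against 123 bp in replicate 1. Repeats in which purines and pyrimidines alternate over 20 bp or more occurred in 1.26 to 51.7% of the peaks of a list. Among promoter peaks alone they occurred in 0.933 to 7.35%. They occurred in 1 member peak, of FGFR1 replicate 1 (0.935%, against 2.98% of its promoter peaks).

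The main question of the design was how binding differed between ESCs and NCs. The FGFR1 share of members was 84.4% ± 11.3 (SD, n = 2) in RA and 32.1% in LIF, a difference of 52.4 percentage points. That distance is larger than the SD of the replicates, and each replicate lay above LIF, by 44.3 and 60.4 points. The former is the value without the second experiment, and for replicate 2 the experiment and the treatment cannot be told apart. Over all protein-coding genes the same difference was 33.2 points. With a single LIF library no test was possible. Scaling the FGFR1 libraries to the lowest depth among them left 75 and 95 members (70.8 and 89.6%) bound in the RA replicates. All genes then gave 48.5 and 44.1%, and the difference for the members was 48.1 points.

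FGFR1 peaks were present in both RA replicates at 79 members (74.5%), against 39.5% of all genes. As a share of all 106 members, 48 (45.3%, against 24.8% of all genes) had FGFR1 in both RA replicates and not in LIF. Among genes bound in both replicates, 48 of 79 members and 5432 of 8649 protein-coding genes lacked the LIF peak. All 34 members bound by FGFR1 in LIF had a peak in replicate 2, and 31 of them had one in replicate 1, so that no member had an FGFR1 peak in LIF and in neither RA list, where 0.306% of all genes did. Of these 34 members, 32 had a LIF peak that shared at least 1 bp with a peak of replicate 2. Between the replicates, 79 members were bound in both, which is 97.5% of those in replicate 1 and 80.6% of those in replicate 2, and 68 of the 79 shared a site. Shared sites were counted at members only, so these counts have no share of all genes beside them. When only the 10634 strongest peaks of each list were used, 29 members (27.4%) remained in LIF, against 15.5% of all genes. Replicate 1 kept 39 members (36.8%, against 18.1%), replicate 2 kept 95 (89.6%, against 43.1%), and 37 members stayed in both replicates. The difference from LIF was then 9.43 points for replicate 1 and 62.3 points for replicate 2.

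RXR showed the opposite order of counts. It was present at 46 members in LIF only (43.4%, against 23.1% of all genes), at 7 members in RA only (6.60%, against 3.94%) and at 22 members in both (20.8%, against 19.4%). The difference between RA and LIF was −36.8 percentage points (95% interval −48.2 to −23.6, counting error only). The 7 members with RXR in RA only were Atp5d, Atp5mpl, Cox14, Cox7c, Ndufa8, Ndufv2 and Uqcrb. The sign of the difference depends on depth. The RA library had a background of 1.87 fragments per kb and the LIF library 7.09, and after scaling the LIF library to the RA depth only 8 members (7.55%) kept an RXR peak in LIF, against 3.50% of all genes. The difference was then 19.8 points in the other direction. Depth and RA treatment cannot be told apart for RXR with 1 library per state.

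Nur77 had similar counts in both states. It was present at 21 members in LIF only (19.8%, against 11.4% of all genes), at 18 in RA only (17.0%, against 11.8%) and at 18 in both (17.0%, against 14.0%). The difference was −2.83 points with an interval of −15.5 to 9.92, so a difference of either sign within these bounds was not detectable. No Nur77 replicate exists within a state to set these counts against. Among the members bound in both states, 14 of 18 had peaks that shared a site. For RXR the count was 15 of 22. Neither count was made over all genes, so both lack a background.

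**Figure D2:**
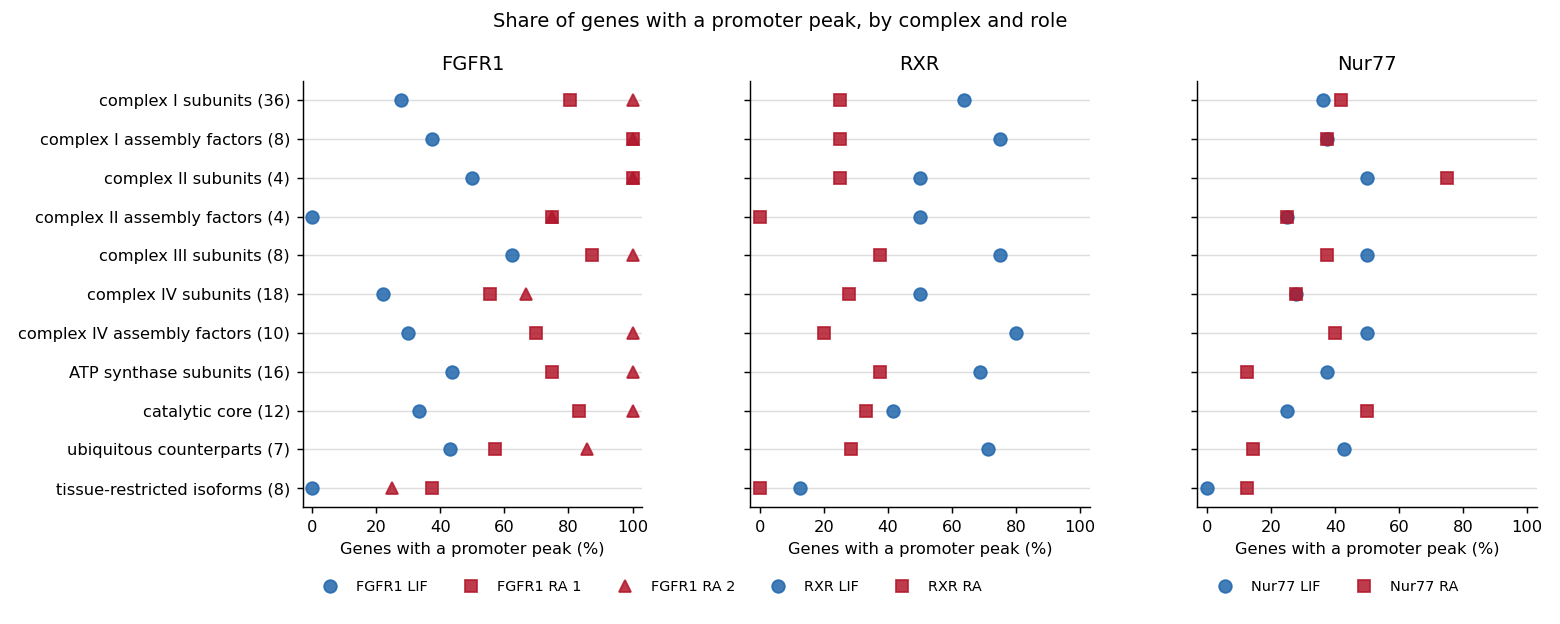
The share of genes with a promoter peak (%, x axis) is shown for each complex and role (y axis, number of genes in brackets) for FGFR1, RXR and Nur77. Circles are LIF libraries, squares and triangles are RA libraries; FGFR1 lies higher in RA than in LIF in every list, while tissue-restricted isoforms stay at or under 37.5%.

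Complex I, which oxidises NADH, supplied 36 subunit genes. FGFR1 was found at 10 of them in LIF (27.8%, against 17.0% of all genes). Replicate 1 had it at 29 (80.6%, against 50.8%) and replicate 2 at all 36 (against 49.6%). RXR peaks were counted at 23 with LIF and 9 with RA (63.9 and 25.0%, against 42.5 and 23.3%), the latter close to the background. Those of Nur77 lay at 13 and 15 (36.1 and 41.7%, against 25.5 and 25.8%), and those of H3.3 at 10 (27.8%, against 15.5%). These shares of all genes are also the background for the counts by complex and role below. The complex I assembly factors, 8 genes of the Ndufaf series that build the complex without staying in it, had FGFR1 peaks at 3 genes in LIF and at all 8 in both RA replicates. Accessory subunits gave the highest complex I values. The Ndufa6 peak at chr15:82354179-82354309 was the strongest member peak of FGFR1 replicate 1, with a −log10 p of 47.5 and 40 fragments at its summit. Ndufa6 had 47.2 in replicate 2, 9.67 for Nur77 in LIF, 14.0 for Nur77 in RA and 10.6 for H3.3, with no peak of FGFR1 in LIF or of RXR. Ndufc2 held the strongest member peak of Nur77 in LIF (22.8), and Ndufa8 that of RXR in RA (18.3) without an RXR peak in LIF.

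Several catalytic subunits of complex I, which carry the flavin and the iron-sulfur clusters, are encoded on nuclear DNA. Ndufs7, which lies next to the quinone site, had a peak in FGFR1 replicate 2 only (−log10 p of 25.1). Ndufs8, an iron-sulfur subunit, had peaks in replicate 2 (18.4) and in Nur77 from RA (8.38). Ndufs3 was found in both FGFR1 lists from RA (15.8 and 24.8) and in no other list.

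Ndufv1, which binds NADH and the flavin, was found in the FGFR1 lists from RA (19.9 and 23.6) and in H3.3 (10.8). Its partner Ndufv2 was bound in all 5 RA lists and in none from LIF, with values of 10.4 and 41.2 in the FGFR1 lists, 10.98 in that of RXR, 10.6 in that of Nur77 and 9.81 in that of H3.3. Ndufs1, the largest subunit of the NADH module, had RXR in LIF (7.72) and FGFR1 in RA (6.75 and 41.9), and its window also holds the start of Eef1b2.

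Complex II links the citric acid cycle to the chain and is encoded by nuclear genes alone. Its flavoprotein Sdha, which oxidises succinate, was bound in all 8 lists. It held the strongest member peak of FGFR1 in LIF, at chr13:74350189-74350383 with a −log10 p of 19.98, and of Nur77 in RA, at chr13:74350209-74350393 with 21.2. RXR reached 20.5 there and Nur77 14.7 in LIF. After RA the FGFR1 values were 26.7 and 68.2, with 14.6 in the RXR list and 14.5 in the H3.3 list. Each of these was above the 90th percentile of promoter peaks in its list, which makes Sdha high in every library rather than in a few. Its window also contains a start of Ccdc127 on the other strand.

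The iron-sulfur subunit Sdhb had FGFR1 peaks in RA alone (7.64 and 16.5). The membrane anchor Sdhc was bound by RXR in LIF (8.87) and by FGFR1 (12.5 and 21.3) and Nur77 (7.59) in RA. The other anchor, Sdhd, was bound in 6 lists, the exceptions being both RXR lists. Among the 4 complex II assembly factors, 3 had FGFR1 in each RA replicate and none had it in LIF. The one without any peak in the 8 lists was Sdhaf1, which helps to insert the iron-sulfur clusters of Sdhb.

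Complex III passes electrons from ubiquinol to cytochrome c. Of its 8 subunit genes, 5 had FGFR1 in LIF, the highest share among the complexes with 62.5%, and 7 and 8 had it in the RA replicates. RXR was found at 6 in LIF and 3 in RA, and Nur77 at 4 and 3. Uqcrfs1, the Rieske iron-sulfur protein, was bound in all lists. FGFR1 reached 11.5 in LIF and 21.4 and 33.5 after RA, RXR 10.2 and 8.17, and Nur77 11.2 and 12.1, while H3.3 gave 9.80. No other annotated protein-coding start lies in its window. The summits at Uqcrfs1 did not coincide, since the FGFR1 summits lay from 22 to 3 bp upstream of the nearest start and the RXR summit in RA lay 421 bp downstream.

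Complex IV reduces oxygen, and its nuclear genes were the most divided. Of 18 subunit genes, 4 had FGFR1 in LIF and 10 and 12 had it in the RA replicates. RXR was found at 9 in LIF and 5 in RA, and Nur77 at 5 in each state. Several subunits exist as a widely used form and as a form restricted to muscle, lung, testis or low oxygen. The 8 restricted forms (Cox4i2, Cox6a2, Cox6b2, Cox7a1, Cox7b2, Cox8b, Cox8c and Ndufa4l2) had no FGFR1 peak in LIF, 3 and 2 in the RA replicates, and 1 for RXR in LIF. Their 7 widely used counterparts had 3 in LIF, 4 and 6 in RA, and 5 for RXR in LIF.

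Cox4i1, the common form of subunit IV, was bound in all 8 lists, while the lung and hypoxia form Cox4i2 was bound in none. At Cox4i1 FGFR1 reached 15.3 in LIF and 36.4 and 61.3 after RA, RXR 13.7 and 9.30, and Nur77 19.9 and 9.18. Its H3.3 peak of 23.8 was the strongest of H3.3 at any member (chr8:120667878-120668110). The summits of these strongest peaks lay from 246 to 204 bp upstream of the nearest Cox4i1 start, and starts of Emc8 and Gm27021 lie in the same window, so the peaks cannot be assigned to 1 gene. Cox8a had 5 lists against none for the muscle form Cox8b and 1, FGFR1 replicate 1 (12.4), for the testis form Cox8c. Ndufa4, now counted with complex IV, had 5 lists (FGFR1 13.3, RXR 12.95 and Nur77 11.8 in LIF, then FGFR1 18.4 and 59.4 after RA), and its hypoxia-induced relative Ndufa4l2 had none.

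Other isoform pairs were not so ordered. Cox7b, a widely used X-linked subunit gene, had no peak in any list, like its testis form Cox7b2. The testis form Cox6b2 had 1 peak, in FGFR1 replicate 2, with a −log10 p of 55.8, higher than the 19.96 of its counterpart Cox6b1 there. Cox7a1, the muscle form, had FGFR1 in both RA replicates (7.66 and 34.0), whereas Cox7a2 had RXR in LIF (14.6) and FGFR1 in replicate 2 (30.2). Cox6a2, a heart and muscle form, had weak peaks of RXR in LIF (7.98), FGFR1 in replicate 1 (5.58) and Nur77 in RA (8.64), and Cox6a1 had 4 lists. With 8 and 7 genes, these counts describe the pairs and were not tested.

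Cox5a, a subunit of complex IV encoded in the nucleus, was bound in all 8 lists and has no other protein-coding start in its window. It held the strongest member peak of RXR in LIF, at chr9:57521221-57521424 with 23.9. FGFR1 reached 6.51 in LIF and 32.7 and 65.0 after RA, RXR 14.0 after RA, Nur77 12.4 and 12.8, and H3.3 20.05. Among the 10 complex IV assembly and supercomplex factors, 3 had FGFR1 in LIF, and 7 and 10 in RA. Cox11, which delivers copper, had 7 lists, with 72.5 in FGFR1 replicate 2 and 17.3 in RXR from RA, and lacked only FGFR1 in LIF. Cox18, which inserts a mitochondrially encoded subunit into the membrane, lacked only RXR in RA.

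ATP synthase had 16 subunit genes in the annotation, of which 7 had FGFR1 in LIF, 12 in replicate 1 and all 16 in replicate 2. RXR was found at 11 in LIF and 6 in RA (68.75 and 37.5%, against 42.5 and 23.3% of all genes). Nur77 was found at 6 in LIF (37.5%, against 25.5%) and at 2 in RA, Atp5a1 and Atp5h (12.5%, against 25.8%). The subunits of the catalytic head were bound in different numbers of lists. Atp5a1 (alpha) was bound in all lists. FGFR1 reached 13.1 in LIF and 23.8 and 70.3 after RA, RXR 7.12 and 8.67, and Nur77 8.76 and 10.1, while H3.3 gave 7.76. Its window also holds a start of Haus1. Atp5b (beta) had FGFR1 peaks in RA alone, at 20.8 and 56.8.

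The strongest member peak of FGFR1 replicate 2 lay at Atp5f1, a subunit of the peripheral stalk (chr3:105959042-105959698, a −log10 p of 107 and 110 fragments at the summit). In LIF the 3 factors reached 10.6 (FGFR1), 12.3 (RXR) and 11.9 (Nur77) at Atp5f1, and FGFR1 replicate 1 gave 20.99. Its window holds a start of Wdr77. The c-ring genes Atp5g1, Atp5g2 and Atp5g3, which encode the same mature protein, were each bound by FGFR1 in LIF and in both RA replicates, with 11.2, 8.61 and 11.1 in LIF and 75.9, 43.0 and 53.4 in replicate 2.

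**Figure D3:**
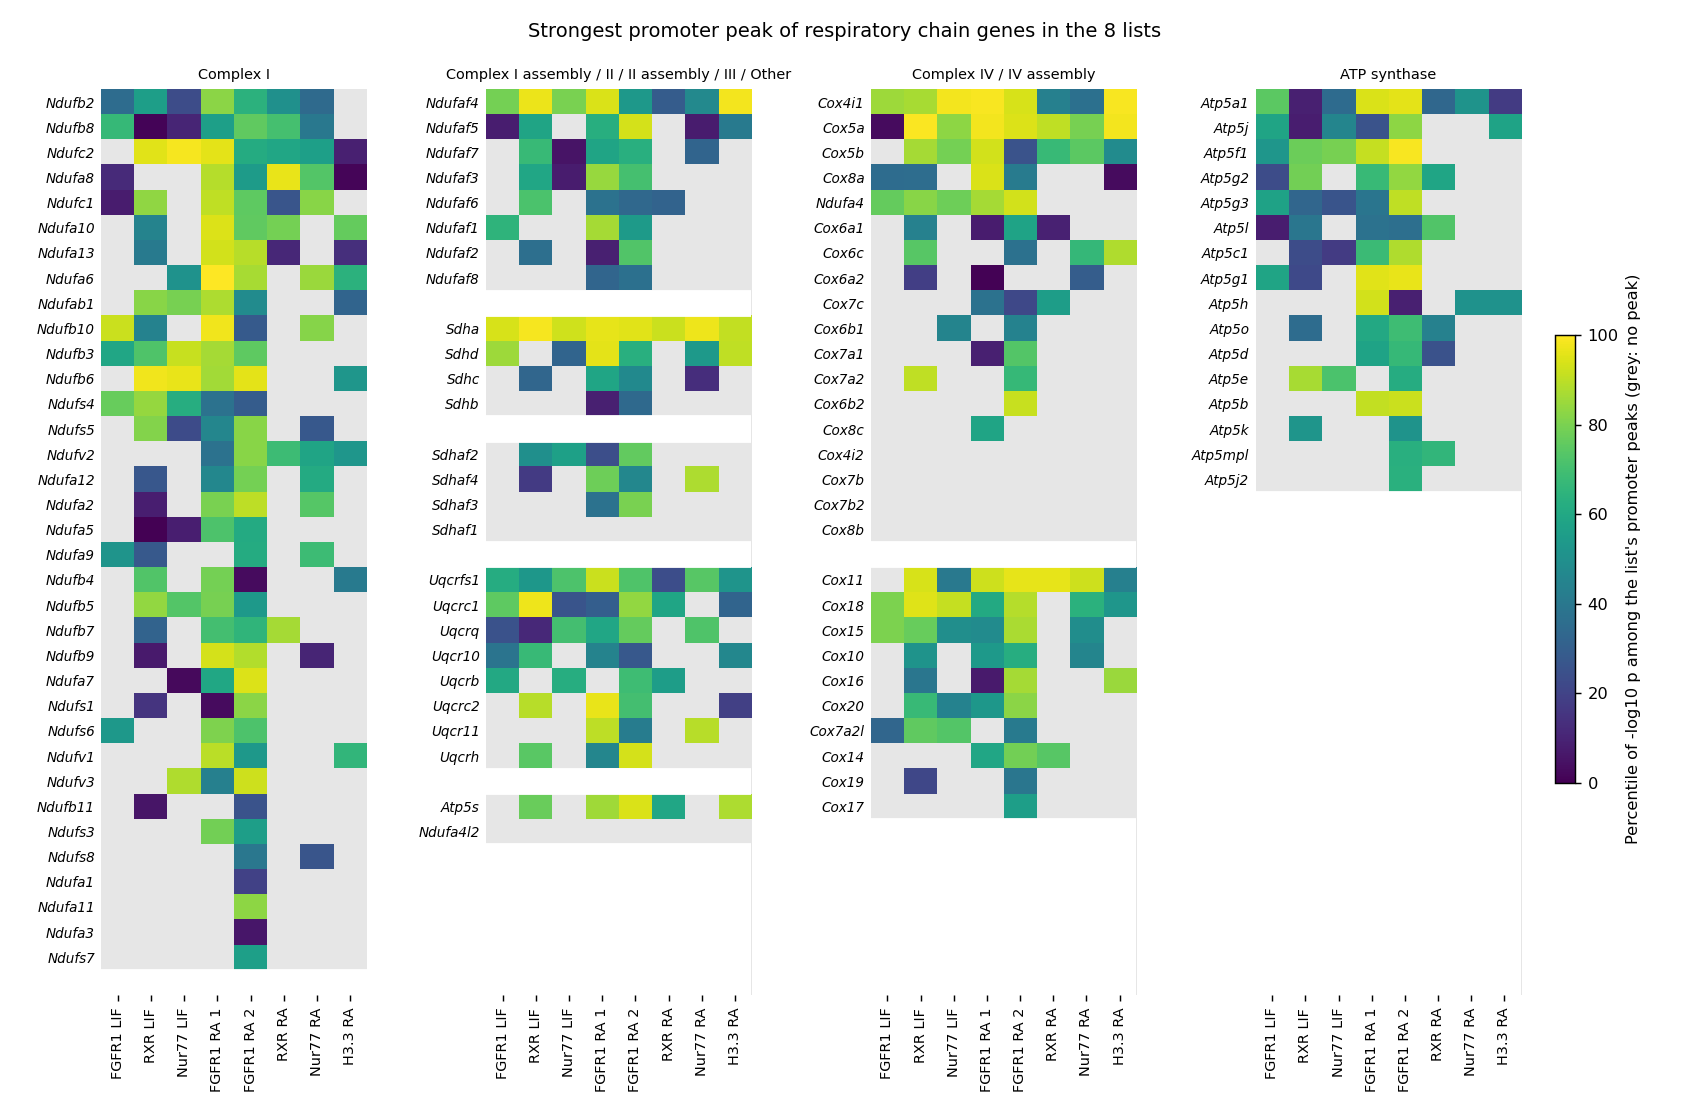
Each row is a respiratory chain gene and each column a library, with a member that is not reported here left out. Colour gives the percentile (0 to 100) of the gene's strongest promoter peak by −log10 p among all promoter peaks of that list, and grey means no peak; FGFR1 replicate 2 fills nearly every row, Sdha is high throughout, and Cox4i2, Cox7b, Cox7b2, Cox8b, Ndufa4l2 and Sdhaf1 are grey throughout.

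Of the 106 members, 6 had a peak in 0 lists, 8 in 1, 13 in 2, 14 in 3, 25 in 4, 20 in 5, 7 in 6, 7 in 7 and 6 in 8. A member had a peak in a median of 4 lists, against 2 for all protein-coding genes. A peak in all 8 lists was found at 6 members (5.66%, against 2.90% of all genes): Atp5a1, Cox4i1, Cox5a, Ndufaf4, Sdha and Uqcrfs1. No peak in any list was found at 6 members (5.66%, against 34.5% of all genes): Cox4i2, Cox7b, Cox7b2, Cox8b, Ndufa4l2 and Sdhaf1. Without FGFR1 replicate 2, 13 members had no peak, so that library alone accounts for 7 members with 1 list: Atp5j2, Cox17, Cox6b2, Ndufa1, Ndufa11, Ndufa3 and Ndufs7. Ndufaf4, the complex I assembly factor in the first group, had FGFR1 at 13.9 in LIF and 23.7 and 23.6 after RA, RXR at 17.97 and 8.43, Nur77 at 12.001 and 9.79, and H3.3 at 20.05.

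Within a list, member peaks were compared in strength with all promoter peaks. Their median percentile among all promoter peaks was 50.9 to 59.0 in 7 lists and 66.3 in FGFR1 replicate 2, where the median −log10 p was 29.9 against 22.2 over all promoter peaks.

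The 3 factors were next compared at the same promoters. In LIF, FGFR1, RXR and Nur77 were all present at 19 members (17.9%, against 9.49% of all genes). Besides the 6 members bound in all lists these were Atp5f1, Atp5g3, Atp5j, Cox15, Cox18, Cox7a2l, Ndufa4, Ndufb2, Ndufb3, Ndufb8, Ndufs4, Uqcrc1 and Uqcrq. At 15 of the 19 each pair of the 3 lists had peaks that overlapped by at least 1 bp. At 12 each pair had summits within 100 bp. The pairs need not rest on the same peak, and at Cox15 different RXR peaks met the summit rule. These counts were not made over all genes. Atp5j, a peripheral stalk subunit, shares its promoter window with Gabpa, which encodes the DNA-binding subunit of GABP.

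In RA, FGFR1 in both replicates, RXR and Nur77 were all present at 14 members (13.2%, against 11.1% of all genes), close to the background. Cox11, Cox5b, Ndufa8, Ndufc1, Ndufc2 and Ndufv2 were among them but not among the 19 from LIF. Each pair of the 3 factors shared a site at 11 of the 14 with either FGFR1 replicate, again counted at members only. FGFR1 in both replicates with neither RXR nor Nur77 was found at 34 members (32.1%, against 14.1% of all genes), among them Atp5b, Ndufs1, Ndufs3, Ndufv1 and Sdhb. The members with RXR or Nur77 in RA were nearly all within the FGFR1 set. All 29 members with RXR and 35 of 36 with Nur77 (97.2%) had a peak in replicate 2, which itself covered 92.5% of the members. In replicate 1, which covered 76.4% of them, the counts were 27 of 29 (93.1%) and 33 of 36 (91.7%). The shares of all RXR and Nur77 genes with FGFR1 were not computed, so these counts have no background. H3.3 was likewise found at 30 members of which all had FGFR1 in replicate 2 and 29 had it in replicate 1. Of all genes with H3.3, 94.5% had FGFR1 in replicate 1 and 80.8% in replicate 2.

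**Figure D4:**
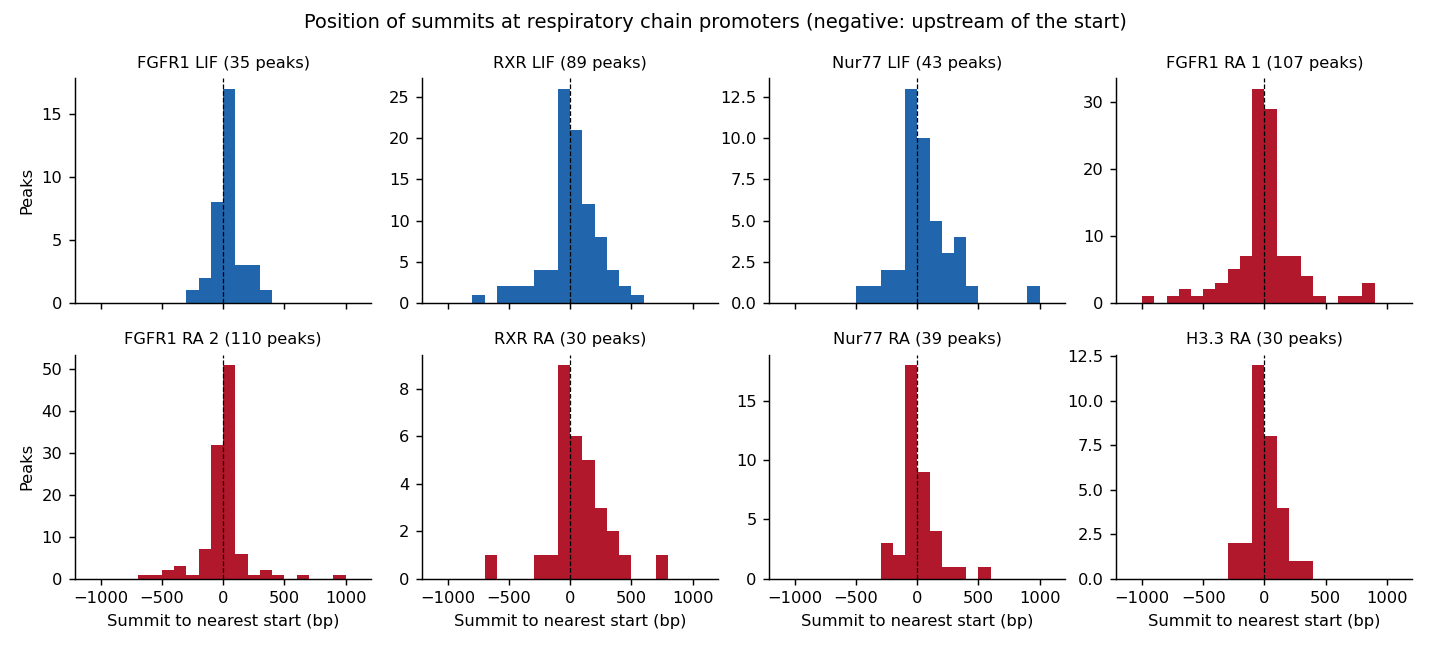
The distance from each member peak's summit to the nearest transcript start of that gene (bp, x axis, negative is upstream) is counted in bins of 100 bp for each library (y axis, number of peaks). Blue is LIF and red is RA; most summits in every library lie within 250 bp of a start.

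Summits at the members lay close to the starts. The median distance was 43 to 109 bp, and 76.6 to 97.1% of the member peaks had a summit within 250 bp, against 68.9 to 86.4% of all promoter peaks. In FGFR1 from LIF 34 of 35 member peaks and in H3.3 29 of 30 were that close. The distance was taken to a member's own starts, whereas for all promoter peaks the nearest protein-coding start was used. In FGFR1 replicate 2, 28 of the 110 summits lay upstream of the gene, 47 in an exon annotated as untranslated, 29 in a coding exon, 4 in an intron and 2 in an exon of a non-coding transcript.

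Many of these promoters are shared. Another protein-coding gene starts in the window of 41 members, on the opposite strand for 39 of them. The members with such a neighbour were more often bound by FGFR1, with 17 of 41 in LIF (41.5%) and 36 and 41 of 41 in RA (87.8 and 100.0%), than the 65 without one (26.2, 69.2 and 87.7%). The order was the same for RXR in LIF (68.3 and 61.5%), for Nur77 in LIF (48.8 and 29.2%) and RA (39.0 and 30.8%), and for H3.3 (29.3 and 27.7%). RXR in RA went the other way, at 24.4 and 29.2%. The 65 include every tissue-restricted isoform and every member without a peak in any list. Shares of all genes with and without a neighbour were not computed. The difference of FGFR1 between RA and LIF was 52.3 points in the 65 members that have the window to themselves.

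The words read by textbook regulators were counted in the promoters, from 250 bp before to 50 bp after each gene start, on either strand. The ETS word was present at 24 members (22.6%), against 10.8% of all promoters of that length. The NRF1 word was present at 8 members (7.55%, against 2.61%) and the YY1 word at 5 (4.72%, against 1.69%). These words were not particular to the respiratory chain. Promoters of the mitochondrial and cytosolic ribosomes had the ETS word at 34.6 and 21.4% and the YY1 word at 8.97 and 6.12%. The NRF1 word stood at 6.41 and 2.04% of them. The GC box stood at 47 members (44.3%, against 43.0%), the E-box at 8 (7.55%, against 7.75%) and the cAMP response element at 4 (3.77%, against 2.43%). The half-site AGGTCA was present at 25 members (23.6%, against 14.8%), and at 15.4 and 14.3% of the mitochondrial and cytosolic ribosome promoters. The longer words AAAGGTCA (NBRE, read by Nur77) and TCAAGGTCA (ERR), both of which contain the half-site, were present at 3 and 2 members (2.83 and 1.89%, against 1.22 and 0.475%).

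**Figure D5:**
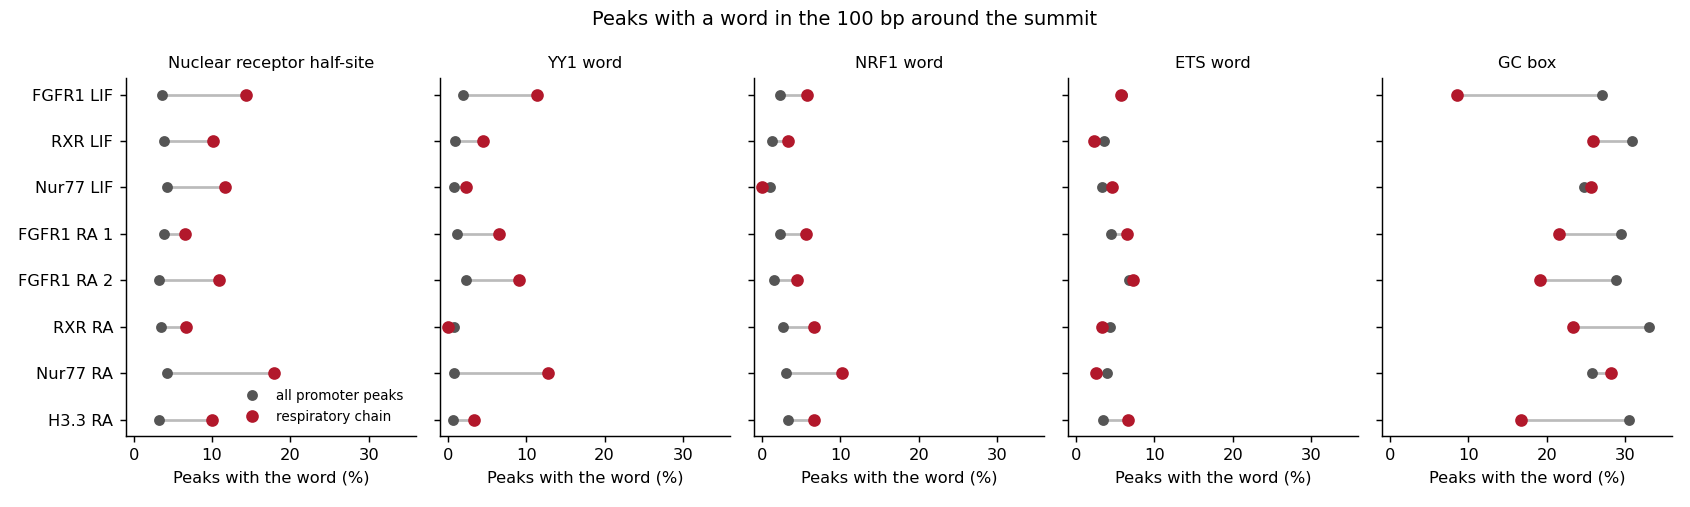
The share of peaks (%, x axis) that hold a word in the 100 bp around the summit is shown for each library (y axis), in red for peaks at respiratory chain promoters and in grey for all promoter peaks. The half-site lies higher at the respiratory chain in every library, from 6.54 to 17.9% against 3.26 to 4.29%, while the GC box lies lower in 6 of the 8.

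The words were then counted in the 100 bp around each summit. The half-site was present at 14.3% of FGFR1 member peaks in LIF, against 3.62% of all FGFR1 promoter peaks there. The RXR and Nur77 lists from LIF gave 10.1 and 11.6%, against 3.93 and 4.20%. After RA the FGFR1 replicates gave 6.54 and 10.9% (against 3.89 and 3.299%). RXR gave 6.67% (against 3.53%), Nur77 17.9% (against 4.29%) and H3.3 10.0% (against 3.26%). These shares rest on 2 to 12 member peaks a library. The highest share was that of Nur77 in RA and the lowest those of FGFR1 replicate 1 and RXR in RA. Lists with peaks at the same place share its sequence, so these shares are not independent.

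The half-site was found near a summit at 33 sites of 28 members. Sites with summits of 3 or more lists lay at Cox18, Ndufb6, Atp5g2, Cox8a and Ndufaf4, and Ndufc2 had the only site with RXR and Nur77 from RA together. They are shown on the strand of the word, 10 bases to either side, with the half-site in capitals.

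Cox18, chr5:90224006-90224031, minus strand: tcggctgggaAGGTCAggcgtggcct
Ndufb6, chr4:40279359-40279384, minus strand: cgggaggggcAGGTCAgtgaccggtc
Atp5g2, chr15:102670921-102670946, plus strand: ggagctagcaAGGTCAgggcggccac
Cox8a, chr19:7217539-7217564, plus strand: gaccagtccaAGGTCAgggagtcaag
Ndufaf4, chr4:24898095-24898120, plus strand: gtgcgtacagAGGTCAccggtgccgg
Ndufc2, chr7:97400401-97400426, plus strand: ttgcccgctgAGGTCAtctgtgctct

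The Cox18 site had summits of FGFR1 in LIF, FGFR1 replicate 1, Nur77 and H3.3, and the Ndufb6 site those of RXR and Nur77 in LIF and of both FGFR1 replicates. Atp5g2 and Cox8a had FGFR1 and RXR in LIF together with 1 FGFR1 library from RA. The ERR word was found near 1 member summit and the NBRE near 1, the latter at Atp5mpl in FGFR1 replicate 2.

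The NRF1 word lay near summits at 8 members, and at 5 of these in 3 or more lists. The 5 sites are shown with the word in capitals.

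Ndufa8, chr2:36049330-36049357, plus strand: gtaccatctgCGCATGCGtctccagcga
Cox18, chr5:90223980-90224007, plus strand: ggaggttgcgCGCATGCGcgaacccgag
Ndufaf5, chr2:140170653-140170680, plus strand: gtcccgttggCGCATGCGcctaatagaa
Uqcrc1, chr9:108936669-108936696, plus strand: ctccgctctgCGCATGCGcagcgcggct
Uqcr11, chr10:80406809-80406836, plus strand: agacgtatagCGCATGCGtgaaggcgat

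At Ndufa8 all 5 RA libraries had a summit within 50 bp of the word, which lies in an exon 62 bp from the start. The share of member peaks with the NRF1 word was 5.71% for FGFR1 in LIF (against 2.37% of all promoter peaks) and 10.3% for Nur77 in RA (against 3.12%), with 3.37 to 6.67% (against 1.28 to 3.29%) in the other lists apart from Nur77 in LIF. That list had 0 of 43, too few peaks to tell from the 1.10% of all its promoter peaks. The NRF1 shares of the remaining lists rest on 2 to 6 member peaks each.

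The YY1 word lay near summits at 13 members. It contains ATG, and at 9 of the 13 that ATG opened an annotated coding segment on the gene's strand. The word was present at 11.4% of FGFR1 member peaks in LIF (against 1.97%), 9.09% in replicate 2 (against 2.35%) and 12.8% of Nur77 member peaks in RA (against 0.801%). Few peaks stand behind these shares: 4, 10 and 5, and from 1 to 7 in the other lists with the word. In the other lists it was present at 2.33 to 6.54% of member peaks (against 0.707 to 1.22%), apart from RXR in RA with 0 of 30, a number of peaks too small to tell from the 0.775% of all its promoter peaks. Among 6 sites with summits of 3 to 5 lists, 5 that lie in an exon of the gene are shown, with the word in capitals.

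Ndufc1, chr3:51408915-51408943, minus strand: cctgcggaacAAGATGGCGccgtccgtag
Ndufs4, chr13:114388041-114388069, minus strand: tgcctacaggAAGATGGCGgcggtctcaa
Uqcrc1, chr9:108936706-108936734, plus strand: cggaagttagAAGATGGCGgcgtccgcag
Ndufa6, chr15:82354213-82354241, minus strand: cttcctcggcAAGATGGCGgccgcggcca
Ndufa9, chr6:126849097-126849125, minus strand: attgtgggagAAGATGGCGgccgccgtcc

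The ETS word was more frequent in member promoters than in all promoters, yet near summits of member peaks its share was 2.25 to 7.27% against 3.34 to 6.71% of all promoter peaks. From 1 to 8 member peaks a library held it. The sites with most lists were at Atp5j (5 lists), Sdhd (4) and Cox15 (3).

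Atp5j, chr16:84834849-84834875, minus strand: ggagccagggCCGGAAGtagaacggtg
Sdhd, chr9:50603879-50603905, plus strand: gaagcgtgaaCCGGAAGgcaggagacg
Cox15, chr19:43752977-43753003, minus strand: gacgcctgacCCGGAAGtgcttgttct

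The cAMP response element lay near summits of 4 lists at Ndufa10 and Uqcrfs1, both in an exon.

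Ndufa10, chr1:92473808-92473835, plus strand: cgcgctgccaTGACGTCAccactgagtg
Uqcrfs1, chr13:30545328-30545355, plus strand: gcagggtttgTGACGTCAgcgcgacgcc

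Genes of the chain that the name rule does not reach were taken from a list of 32, with cytochrome c (Cycs), cytochrome c1 (Cyc1) and assembly factors. Of these, FGFR1 had 10 in LIF (31.25%, against 17.0% of all genes) and 28 and 31 after RA (87.5 and 96.9%, against 50.8 and 49.6%). RXR had 27 and 11 (84.4 and 34.4%, against 42.5 and 23.3%). Nur77 had 14 and 19 (43.75 and 59.4%, against 25.5 and 25.8%), and H3.3 had 10 (31.25%, against 15.5%). Cycs was bound in all 8 lists, with 12.2 for FGFR1 in LIF and 28.1 and 48.9 in RA, while Cyc1 had 3 lists and Fastkd2 none. Among 15 regulators of these genes, FGFR1 was found at 8 in LIF (53.3%) and at 12 and 13 in RA (80.0 and 86.7%). RXR was found at 12 and 4 (80.0 and 26.7%), the latter close to the 23.3% of all genes. Nur77 was found at 7 and 5 (46.7 and 33.3%). The shares of all genes are those given for the list of 32. Nrf1, Gabpa, Gabpb2, Yy1, Creb1 and Tfb2m had FGFR1, RXR and Nur77 peaks in LIF, as did 9.49% of all genes. These 6 of the 15 also had FGFR1 in both RA replicates, a combination not counted over all genes. Of these 6 Gabpb2 also had RXR in RA (9.75). The peaks of Gabpa are those named for Atp5j, since both start in 1 window. Ppargc1b, a coactivator of tissues rich in mitochondria, had no peak and Ppargc1a, its relative, 1 in FGFR1 replicate 1 (11.9).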

How the data were processed

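Peak lists of 8 ChIP-seq libraries were analysed, 1 per library. Groups were read from the sample titles. Per the labels and the study's methods, the authors mapped reads to mm10 with Bowtie 1.0 and ran MACS2 on every library by itself (p limit 1e-05), naming no control library. The tools and build are also in the submitters' processing notes. The deposited fold is the ratio of summit pileup to local background, the deposited −log10 p describes the summit, as does −log10 q, and the deposited score is an integer form of −log10 p that no result uses.

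Genes and transcript starts came from GENCODE M21 (GRCm38). A gene was bound when a peak overlapped a window of 1000 bp around any start by 20 bp. Atp5o has 2 records and was counted once, so 107 records gave 106 members. Fragments at summits and background density, the measure of depth, were solved from fold and −log10 p with MACS2's Poisson tail within 0.002, after the solver was tested on simulated data. Sequences were read from the RefSeq GRCm38 assembly, and 85 of 106 members also have an entry in the RefSeq promoter table of that build. Words were searched on both strands. Intervals are exact Clopper-Pearson at 95% (Newcombe from Wilson limits for differences) and cover counting error only. No p-value was computed, since only FGFR1 in RA has 2 libraries. Tools were Python 3.11.15, pandas 2.3.3, numpy 2.4.6 and scipy 1.17.1.

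The members, lists and words were chosen with earlier results of these data known. Genes are named if bound in all lists or none, if they hold a list's strongest member peak, if in the core or isoform lists, or if bound by 3 factors in LIF, and others were named after their values were seen. Alternatives were a −log10 p of 10, a −log10 q of 2, a fold of 5, equal peak numbers, windows of 500 bp, gene starts only, summits in the window, no tract peaks, equal depth, members without a shared window, subunits only and leaving out each FGFR1 replicate. The listed names Atp5md and Atp5pb did not occur in the annotation. The values of a single member are not reported here, although counts over the members include it.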

Additional observations from a re-analysis of the deposited data

How the results depend on the processing

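The Nur77 difference (−2.83 points) lay between −6.60 and 1.54 points over its alternatives and was 0.0 at a fold of at least 5, so it has no stable direction. With an equal number of 10634 strongest peaks per list, the RA minus LIF difference became 35.9 points for FGFR1 (9.43 for replicate 1 and 62.3 for replicate 2) and −6.60 points for RXR, and 37 members had FGFR1 in both RA replicates. At a −log10 p of at least 10 the RXR difference was −20.8 points, and that of Nur77 reversed to 0.943 points. Scaling to the lowest depth compared reversed the RXR difference to 19.8 points, by construction through fewer LIF peaks. In the 65 members without another start in the window, the Nur77 difference reversed to 1.54 points, and 43 of the 65 had FGFR1 in both RA replicates. Fewer genes were counted there, and the share bound was also lower. It was 69.2 and 87.7% in the replicates, against 76.4 and 92.5% over all members. Without either FGFR1 replicate in RA, the FGFR1 difference was 44.3 to 60.4 points and the count 81 to 98. The cause of the other changes was not tested. Members in all 8 lists fell to 1 at a −log10 p of at least 10, with equal numbers and with all libraries scaled to the lowest depth, and those in no list rose to 16 with the latter. With that scaling Nur77 in RA was found at 2.83% of members, under the 5.025% of all genes. In every other list the share of members stayed above that of all genes. Shallow libraries, H3.3 and RXR in RA above all, limit what an absent peak means. Libraries could not be paired, because only FGFR1 in RA has more than 1 library. The same members were scored in every list, and the intervals of the differences do not use that pairing by gene.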
